A study of Homo sapiens with 3 samples.

Results

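The 456 regions described here were peaks called on MEIS1 immunoprecipitates after HOXB13 knockout. They overlapped no peak called with HOXB13 present and were annotated neither to a promoter nor to a repeat. They were chosen from the 2047 peaks of the HOXB13ko-LV-MEIS1 list by 3 conditions: the annotation was not a promoter, the detailed annotation was not a repeat element, and the peak shared not even 1 bp with any of the 5968 peaks of the other list. Both lists together held 8015 peaks, and a peak is a stretch of the genome where fragments recovered with the MEIS1 antibody piled up above the background set by an input library. MEIS1 was immunoprecipitated from CWR-22Rv1 cells, an epithelial prostate carcinoma line established from a relapsed xenograft grown in castrated mice. LV-MEIS1 cells carried a lentivirus expressing exogenous MEIS1. HOXB13ko-LV-MEIS1 cells carried exogenous MEIS1 from a lentivirus too, after CRISPR knockout of HOXB13, for which Cas9 had been integrated with a transposon and guide RNA transfected. The knockout line was a pool made by mixing several verified clones, not a single clone. Both lines were kept in puromycin and harvested after 48 h. The LV-MEIS1 list was called on a pool of 3 immunoprecipitations (202428594 reads) and the HOXB13ko-LV-MEIS1 list on a pool of 2 (105763683 reads), each against 1 input labelled CWR-22Rv1 (39102495 reads). Each line therefore had 1 list and no replicate, so differences between the lines were not tested, and every interval given is a 95% Wilson interval that covers counting error over peaks only.

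MEIS1 is a TALE-class homeodomain protein that binds DNA with the core TGACA and commonly partners PBX and HOX proteins. HOXB13 is a posterior HOX protein of the prostate epithelium and recognises AT-rich sites with the core ATAAA. CpG islands are CG-dense stretches that often cover gene starts, and tRNA genes are read by RNA polymerase III through promoter elements inside the gene. A sequence present in several copies gives short reads that cannot be assigned to a single address.

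Some of the sequences under the summits were of recognisable kinds, and examples are printed here from hg38, 5′ to 3′. The first 5 come from peaks with TGACA close to the summit, the point of highest signal, and the capitals mark TGACA.
SRGAP3-AS2, chr3:9098785-9098825, minus strand: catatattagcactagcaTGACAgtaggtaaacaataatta
PAX4, chr7:127620332-127620372, plus strand: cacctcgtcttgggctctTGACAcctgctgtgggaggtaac
RNU5F-1, chr1:44721689-44721729, plus strand: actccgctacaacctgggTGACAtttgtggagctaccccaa
GALR2, chr17:76075477-76075517, plus strand: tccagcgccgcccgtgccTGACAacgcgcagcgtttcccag
FOXK2, chr17:82494621-82494661, plus strand: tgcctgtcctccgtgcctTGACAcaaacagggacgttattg
The next 4 lie in peaks beside tRNA genes that were among the 20 with the highest fold enrichment. The capitals mark the B box, the internal promoter element of RNA polymerase III genes, searched on both strands as GGTTCGA followed 2 bases further by CC.
MIR6883, chr17:8139448-8139488, minus strand: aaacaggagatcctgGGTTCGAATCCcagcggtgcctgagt
FAM231D, chr1:149712548-149712588, minus strand: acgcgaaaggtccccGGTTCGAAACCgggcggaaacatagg
ALOXE3, chr17:8120310-8120350, minus strand: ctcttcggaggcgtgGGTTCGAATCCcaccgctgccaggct
LINC00324, chr17:8221583-8221623, plus strand: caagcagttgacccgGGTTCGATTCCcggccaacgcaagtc
Another 2 lie in the last coding exons of C2H2 zinc-finger genes, with TGTGGGAAA in capitals, a stretch that recurs from finger to finger in these genes.
ZNF77, chr19:2933604-2933664, minus strand: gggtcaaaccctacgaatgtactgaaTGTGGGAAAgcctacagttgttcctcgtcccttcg
ZNF594, chr17:5182086-5182146, minus strand: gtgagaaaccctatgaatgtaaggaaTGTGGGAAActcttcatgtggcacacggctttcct
Among peaks labelled CpG island in the annotation, the one with the highest fold enrichment is shown with its 11 CG dinucleotides in capitals.
ZFP36, chr19:39402556-39402656, plus strand: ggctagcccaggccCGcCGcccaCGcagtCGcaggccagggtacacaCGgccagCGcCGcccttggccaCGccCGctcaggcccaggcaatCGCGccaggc
The last 2 are tandem arrays, and the capitals mark the 31 bases at the summit whose copies were counted.
LINC01238, chr2:242010242-242010342, plus strand: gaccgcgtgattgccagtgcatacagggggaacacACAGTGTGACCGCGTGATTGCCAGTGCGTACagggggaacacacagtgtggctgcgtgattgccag
SERPINF2, chr17:1738999-1739099, plus strand: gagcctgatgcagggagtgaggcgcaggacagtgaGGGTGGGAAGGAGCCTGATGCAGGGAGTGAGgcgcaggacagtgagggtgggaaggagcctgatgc

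The overlap condition chose the peaks and is given as a description. In the whole knockout list 1591 of 2047 peaks (77.7%) had no counterpart in the other list, and of its 715 peaks outside promoters and repeats 456 (63.8%) had none. Just outside the limit lay peaks at MTR (50 bp from an LV-MEIS1 peak, fold enrichment 5.11), LOC102723360 (67 and 71 bp, 4.50 and 4.91), PRKAR1B (74 bp, 5.44) and RNVU1-14 (84 bp, 14.10). Just inside it, and so not in the group, lay peaks at PPFIA3 (8 bp shared, fold enrichment 9.27), MEF2D (63 bp, 5.38), GALT (65 bp, 4.15), LOC101928530 (68 bp, 4.48) and C7orf61 (80 bp, 4.91). Fold enrichment is the pileup of immunoprecipitated fragments at the summit over the background, and its values on both sides of the limit overlapped. In all, 30 of the 456 lay within 500 bp of an LV-MEIS1 peak and 70 within 10000 bp, and the median distance was 85921 bp. For 17 peaks, on unplaced, unlocalised or alternate sequences, no LV-MEIS1 peak lay on the same sequence. The LV-MEIS1 list used here is shorter than the number of peaks the study's text gives for that line. Peaks outside it were not analysed here, so membership and the shares without a counterpart hold for the list as used.

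By the deposited annotation of the summits, 178 of the 456 peaks were intergenic (39.0%, 34.7 to 43.6), 93 were in introns (20.4%, 17 to 24.3), 85 in coding exons (18.6%, 15.3 to 22.5), 34 in 5′ UTRs (7.46%, 5.38 to 10.2), 30 at gene ends (6.58%, 4.65 to 9.24), 18 in noncoding exons (3.95%, 2.51 to 6.15) and 4 in 3′ UTRs (0.877%, 0.342 to 2.23), and 14 on unplaced, unlocalised or alternate sequences had no annotation. The coding-exon peaks lay in the last exon of several in 42 cases, in the first in 14, in an inner exon in 18 and in single-exon genes in 11. The peaks carried 361 gene names, of which 323 were named once. Coding exons held 3.09% (1.57 to 5.98) of the 259 knockout-line peaks that met the same 2 annotation conditions but overlapped an LV-MEIS1 peak, and 1.61% (1.24 to 2.1) of the 3353 LV-MEIS1 peaks that met them and overlapped no knockout-line peak. Introns held 36.7% (31 to 42.7) and 49.6% (47.9 to 51.3) of those groups. Of the 93 intron peaks 56 were in the first intron. Annotation was part of the rule that chose the peaks, so these shares are descriptions and were not tested. None of the 758 knockout-only repeat peaks, which the rule left out, was annotated to a coding exon. In the whole HOXB13ko-LV-MEIS1 list coding exons held 4.54% (3.72 to 5.53) and introns 21.5% (19.8 to 23.3). In the whole LV-MEIS1 list they held 0.989% and 38.0%. Gene ends held more of the 259 overlapping peaks (12.7%, 9.22 to 17.4) than of the 456, but these intervals touched.

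**Figure D1:**
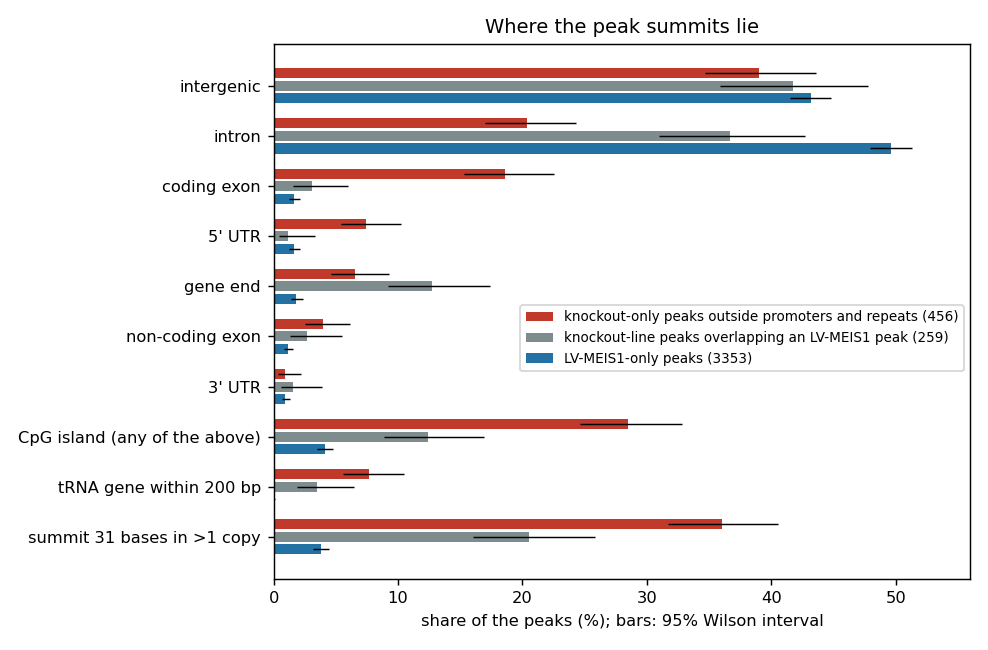
Share of peaks (%) by annotated position of the summit, by CpG island label, nearby tRNA gene and copy number. Groups are the 456 knockout-only peaks, the 259 overlapping peaks of the knockout line and the 3353 LV-MEIS1-only peaks, all outside promoters and repeats. Bars give shares with 95% Wilson intervals; coding exons held 18.6%, 3.09% and 1.61%, and introns 20.4%, 36.7% and 49.6%.

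The name "outside promoters" held only for the deposited annotation, whose promoter class reached from 1000 bp upstream to 100 bp downstream of a transcription start. All 104 peaks within 1000 bp of the start assigned to them lay downstream of it, more than 100 bp away, and none lay upstream. Their fold enrichment had a median of 5.26, and their summits a median G + C content of 67.3%. Measured against GENCODE release 44, 138 of the 417 peaks on chromosomes 1 to 22, X and Y (33.1%, 28.7 to 37.7) lay within 1000 bp of a protein-coding transcript start and 198 (47.5%, 42.7 to 52.3) within 1000 bp of the start of any transcript. For LV-MEIS1-only peaks the shares were 10.9% (9.91 to 12) and 15.8% (14.6 to 17.1). For the overlapping peaks on these chromosomes they were 13.9% (10.2 to 18.8) and 33.1% (27.5 to 39.1). The median distance to the assigned start was 8010 bp, against 19660 bp for the overlapping and 40162 bp for LV-MEIS1-only peaks. In all, 22 of 442 peaks with an assigned start lay beyond 100000 bp (4.98%, 3.31 to 7.42). The share was 18.2% (14.0 to 23.4) for the overlapping peaks and 26.7% (25.2 to 28.2), 894 of 3349, for LV-MEIS1-only peaks.

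The detailed annotation gave the label CpG island to 130 of the 456 summits (28.5%, 24.6 to 32.8). Of these, 70 were annotated as intergenic and 60 as intronic. No summit in an exon, UTR or gene end of the group carried the label, nor did any of the 377 knockout-only promoter peaks. The shares are therefore those of the label and do not measure all overlap with CpG islands. The label was given to 12.4% (8.89 to 16.9) of the 259 overlapping peaks and 4.09% (3.47 to 4.81) of LV-MEIS1-only peaks. The median G + C content within 50 bp of the summit was 63.4% (quartiles 55.2 and 71.3), and it was 54.0% in the flanks 450 to 550 bp away. The overlapping peaks had a median of 49.5% at the summit and 47.5% in the flanks, and LV-MEIS1-only peaks 39.6% and 40.1%. The median number of CG dinucleotides in that window was 7.5, against 2 in the overlapping peaks and 1 in the LV-MEIS1-only peaks. The G + C content of the 456 peaks averaged 49.8% at 1000 bp before the summit and 62.5% at the summit, and that of LV-MEIS1-only peaks stayed between 41.1% and 42.4% over the whole window. The knockout-only promoter peaks of the same list, which the annotation set apart, had a median of 66.3%.

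**Figure D2:**
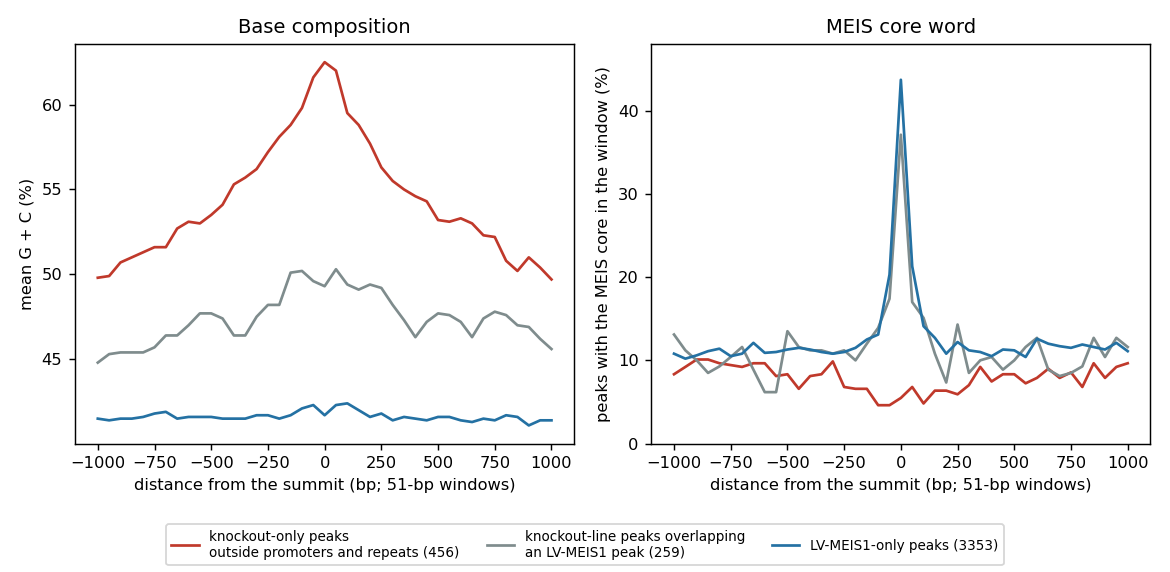
Mean G + C content (left, %) and share of peaks with the MEIS core word (right, %) in 51-bp windows from 1000 bp before to 1000 bp after the summit, for the same 3 groups of peaks. At the summit the 456 knockout-only peaks had 62.5% G + C and the core in 5.48%, and the LV-MEIS1-only peaks had 41.7% and 43.7%.

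The sequence under the summit was not used to choose the peaks, so words at the summit could be compared with the peaks' own flanks. TGACA lay within 50 bp of the summit, on either strand, in 39 of the 456 peaks (8.55%, 6.32 to 11.5) and in 15.1% (13.0 to 17.6) of the flanks. The word was thus less frequent at the summits, by 6.58 percentage points (exact two-sided binomial test on peaks that differed, the larger p of both flanks, p = 0.00804; 0.0482 after Benjamini-Hochberg adjustment over 24 words). That adjusted p lay close to the threshold of 0.05, and 8 of 11 other settings did not pass it, with adjusted p from 0.0737 to 1.00. No setting gave TGACA more often at the summits. G + C content changed over the same distances: in the 67 peaks with under 50% G + C at the summit, TGACA lay in 11.9% (6.18 to 21.8) of summits and 20.9% (14.9 to 28.5) of flanks. In the other 389 it lay in 7.97% (5.67 to 11.1) of summits and 14.1% (11.9 to 16.8) of flanks. The part of base composition in this difference was not tested. In the 259 overlapping peaks TGACA lay in 48.3% (42.2 to 54.3) of summits and 18.3% of flanks, and in LV-MEIS1-only peaks in 57.5% (55.9 to 59.2) and 19.6%. The other knockout-only peaks of the list also had it less often at summits than in flanks, which was not tested. In knockout-only promoter peaks TGACA lay in 7.69% (5.41 to 10.8) of summits and 12.6% of flanks. In knockout-only repeat peaks it lay in 11.4% (9.30 to 13.8) and 14.2%. Over whole lists TGACA lay in 16.8% of all HOXB13ko-LV-MEIS1 summits and 56.1% of all LV-MEIS1 summits. The 30 peaks within 500 bp of an LV-MEIS1 peak had it in 13.3% of summits (5.31 to 29.7) and 15.0% of flanks.

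The longer word TGACAG lay in 12 summits (2.63%, 1.51 to 4.54) against 5.04% of flanks (adjusted p = 0.276, exact binomial). The pairing of TGACA with TTTAT 2 bases further, as a MEIS and HOX13 composite, lay in none of the 456 summits and none of the flanks. The PBX and MEIS composite TGATTGAC lay in no summit either. With 0 of 456 the upper bound of the interval was 0.835%.

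Of the 23 other words 3 passed the test, and they went in both directions. ATAAA, the HOX13-type core, lay in 32 summits (7.02%, 5.01 to 9.74) and 18% (15.6 to 20.6) of flanks (adjusted p = 4.00e-05, exact binomial). In the 67 summits with under 50% G + C it lay in 20.9% of summits and 20.1% of flanks, and in the other 389 in 4.63% and 17.6%. ATAAA was also less frequent at the summits of knockout-only promoter peaks (3.18%, flanks 15.9%) and knockout-only repeat peaks (10.6%, flanks 32.3%). The E-box CACGTG, the site of MYC, MAX and USF proteins, lay in 32 summits (7.02%, 5.01 to 9.74) and 2.52% (1.69 to 3.76) of flanks (adjusted p = 0.0270, exact binomial; 0.272 within 25 bp of the summit). All 32 were among the 389 summits with at least 50% G + C (8.23%, flanks 2.70%). In the 67 summits under 50% it lay in 0 (flanks 1.49%). The word contains a CG, and the median number of CG dinucleotides was 7.5 at the summits and 3.5 in the flanks. The part of base composition in the E-box difference was not tested. By annotation, the E-box was found in 13 of 85 coding-exon peaks (15.3%, 9.16 to 24.4) and 11 of 93 intron peaks (11.8%, 6.73 to 19.9). It lay in 4 of 178 intergenic peaks (2.25%, 0.877 to 5.63). Without the summits present in more than 1 copy the E-box lay in 8.90% of summits and 2.23% of flanks (adjusted p = 0.00655, exact binomial). Over all HOXB13ko-LV-MEIS1 summits it lay in 4.55%, and over all LV-MEIS1 summits in 2.15%. In knockout-only promoter peaks the E-box lay in 9.02% (6.53 to 12.3) of summits and 2.25% of flanks. In knockout-only repeat peaks it lay in 1.59% (0.910 to 2.75) and 1.26%. The B box lay in 16 summits (3.51%, 2.17 to 5.62) and in none of the flanks (adjusted p = 0.000366, exact binomial). In knockout-only promoter peaks it lay in 4.51% (2.83 to 7.10) of summits and 0.398% of flanks. In knockout-only repeat peaks the shares were 7.01% (5.40 to 9.06) and 0.529%. The B box did not pass the exact binomial test in 4 of 5 recomputations: without tRNA, snRNA and ribosomal DNA peaks (adjusted p = 1.00), without multi-copy summits (0.250), within 25 bp of the summit (0.375) and against flanks centred 1000 bp away (0.0638). The GC box GGGCGG of SP and KLF factors lay in 74 summits (16.2%, 13.1 to 19.9) and 11.4% (9.50 to 13.6) of flanks and did not pass the exact binomial test (adjusted p = 0.211), nor did the ETS core CCGGAA (5.26% and 2.52%, adjusted p = 0.264) or the CTCF core (2.85% and 0.768%, adjusted p = 0.141). Peaks that share a sequence, such as copies of a tRNA gene, were counted separately in these tests.

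**Figure D3:**
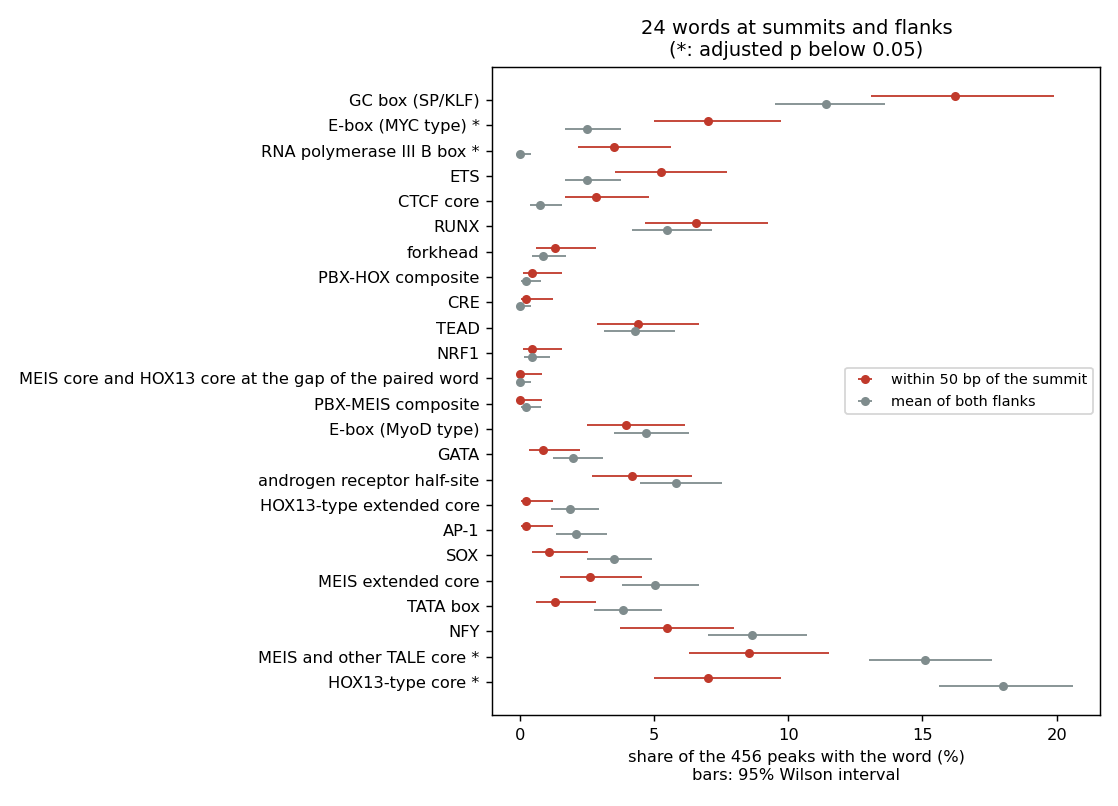
Share of the 456 peaks (%) with each of 24 words within 50 bp of the summit (red) and in the flanks 450 to 550 bp away (grey, mean of both), with 95% Wilson intervals. Asterisks mark the 4 words with an adjusted p under 0.05: the E-box and B box lay more often at summits, and TGACA and the HOX13-type core less often.

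Genes of tRNAs and small nuclear RNAs lay at some of the peaks with the highest fold enrichment. A tRNA gene of the RefSeq table lay within 200 bp of 35 summits (7.68%, 5.57 to 10.5), with 35 different tRNA genes named. The share was 3.47% (1.84 to 6.47) in the 259 overlapping peaks and 0 of 3353 in the LV-MEIS1-only peaks, where the interval reached 0.114%. It was 8.6% (7.46 to 9.89) in the whole HOXB13ko-LV-MEIS1 list, 8.22% (5.85 to 11.4) in its knockout-only promoter peaks and 11.3% (9.28 to 13.8) in its knockout-only repeat peaks, with intervals that overlapped that of the 456. The B box lay within 100 bp of the summit in 26 of the 35 (74.3%) and in 1 of the 421 other peaks. Outside 1 array, described next, 27 such peaks had a median fold enrichment of 8.04 (5.00 to 12.7) over a median background of 2.9. The background is the pileup expected from the input, and its lowest possible value in these lists was 2.9. The peak at TRT-AGT5-1, annotated to MIR6883 (chr17:8139370-8139673), had a pileup of 48.4 and a fold enrichment of 12.69. The peak at TRV-CAC1-7, annotated to FAM231D (chr1:149712430-149712826), had 56.9 and 12.38. The peak at TRP-TGG2-1, annotated to the Wnt ligand gene WNT11 (chr11:76235374-76236045), had 47.0 and 11.99, and that at TRK-TTT3-1 near MDM4, which encodes an inhibitor of p53 (chr1:204506390-204507268), had 58.0 and 11.81. The background at these 4 was 2.9 to 4.00. The noncoding RNA gene LINC00324 was named for 4 more, all at tRNA genes of chromosome 17, with fold enrichments of 5.48 to 10.31 and summits in 6 to 9 copies.

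The array had lower fold enrichments at higher pileups. FCGR2A, an Fc receptor gene, was the nearest named gene for 8 peaks between chr1:161443122-161443607 and chr1:161469222-161469539, each at a glycine or glutamate tRNA gene of a cluster and each in a CpG island. Their pileup was the highest of the group (107.2 to 128.7), their background was 35.6 to 70.8, and their fold enrichment was 1.80 to 2.95. All 8 summits had 4 to 12 copies of their 31 bases in hg38. A similar pattern was seen in ribosomal DNA, where 17 peaks were annotated to RNA28SN5, RNA5-8SN5 or MIR6724 genes on chromosome 21 and 2 unplaced or unlocalised sequences. Their pileup was 61.4 to 102, their background 19.1 to 48.0 and their fold enrichment 1.71 to 3.11. Of the 758 knockout-only repeat peaks of the same list 28 (3.69%, 2.57 to 5.29) were annotated to such genes, a share like that of the 456 (3.73%, 2.34 to 5.89). None of the 3353 LV-MEIS1-only or 259 overlapping peaks was, and 1 of all 5968 LV-MEIS1 peaks. A background pileup over 10 was seen at 60 of the 456 peaks (13.2%, 10.4 to 16.6), at 0 of the 259 overlapping peaks and at 27 of the LV-MEIS1-only peaks (0.805%, 0.554 to 1.17). It was seen at 6.60% (5.04 to 8.59) of the knockout-only repeat peaks. The background came from the single input, so at these peaks a difference in copy number between the lines and a difference in binding cannot be told apart.

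**Figure D4:**
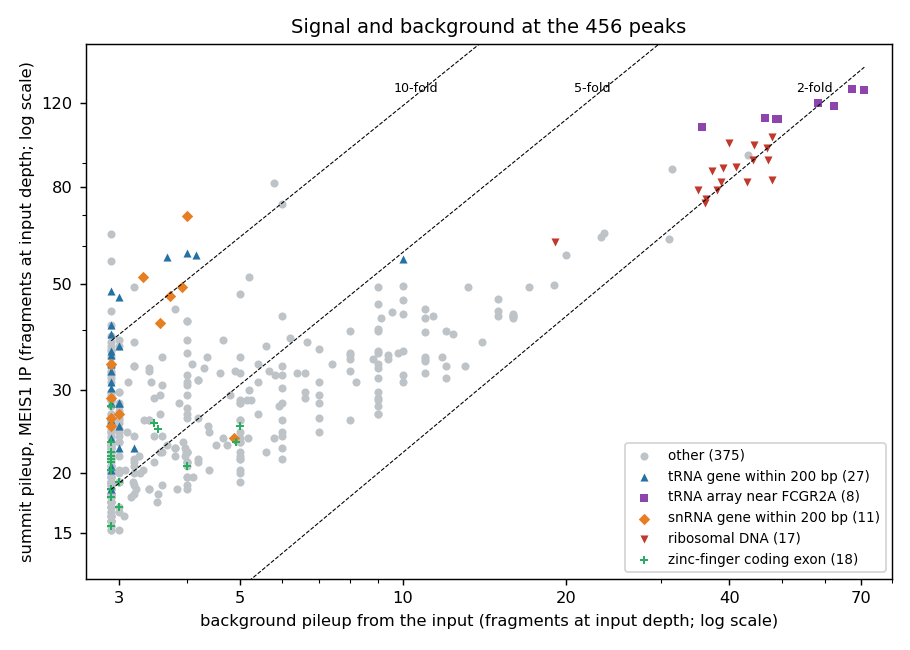
Pileup at the summit against the background pileup from the input for the 456 peaks, both in fragments at the input's depth on log axes; dashed lines mark fold enrichments of 2, 5 and 10. The tRNA array near FCGR2A (8 peaks) and ribosomal DNA (17 peaks) combine the highest pileups with backgrounds of 19.1 to 70.8, whereas all but 1 of the other 27 tRNA peaks lie near the lowest background.

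An snRNA gene lay within 200 bp of 11 summits (2.41%, 1.35 to 4.27), with a median fold enrichment of 8.99 (4.19 to 14.1). The highest, at the U1 variant gene RNVU1-14 (chr1:145281035-145281487), had a pileup of 69.5 and a fold enrichment of 14.10, and lay 84 bp from an LV-MEIS1 peak. Its relative RNVU1-15 had 10.20 and lay 108 bp from an LV-MEIS1 peak. The U2 gene RNU2-1 was named for 2 peaks with 12.21 and 10.24, whose 31 bases occurred in 13 and 14 copies. These genes are very short, and 10 of the 11 peaks were annotated as gene ends. The peaks at the U5 genes RNU5E-1, RNU5D-1, RNU5F-1 and RNU5A-1 had fold enrichments of 8.99, 7.66, 6.90 and 6.71. The share of snRNA genes was 8.49% (5.68 to 12.5) in the 259 overlapping peaks, above that of the 456, and these intervals did not overlap. It was 2.34% (1.77 to 3.10) in the whole HOXB13ko-LV-MEIS1 list, close to that of the 456.

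Many summits were in sequence with further copies, although no repeat element had been annotated there. The 31 bases at the summit occurred more than once in hg38 for 164 of the 456 peaks (36.0%, 31.7 to 40.5), against 20.5% (16.0 to 25.8) of the overlapping and 3.79% (3.19 to 4.49) of the LV-MEIS1-only peaks. The share was 32.9% (30.9 to 35) in the whole HOXB13ko-LV-MEIS1 list and 47.4% (43.8 to 50.9) in its knockout-only repeat peaks. For 36 peaks there were 10 copies or more. Copies on alternate and unplaced sequences of hg38 were included in these counts. A summit whose only further copy lay on such a sequence was therefore called multi-copy too. In 70 peaks (15.4%, 12.3 to 18.9) a further copy lay within 5000 bp, against 0.418% (0.249 to 0.700) of LV-MEIS1-only peaks. The median fold enrichment was 4.76 (quartiles 3.26 and 6.07) for multi-copy summits and 5.14 (quartiles 4.28 and 6.43) for single-copy summits. The 264 single-copy peaks with no tRNA, snRNA or ribosomal DNA gene (57.9%) had a median fold enrichment of 4.92 and a median G + C content of 68.3%. Of the 12 genes named for 3 or more peaks, FCGR2A, LINC00324, RNA28SN5 and the 3 genes MIR6724-2, MIR6724-3 and MIR6724-4 belonged to the RNA genes above, and 5 of the rest had only multi-copy summits. LINC01238, a noncoding RNA gene at the end of chromosome 2, had 7 peaks with fold enrichments of 4.04 to 5.57 in an array with 44 to 271 copies of the summit sequence. SERPINF2, which encodes an inhibitor of plasmin, had 3 peaks (4.62 to 5.95) with 42 to 68 copies, and BDH1, which encodes a mitochondrial dehydrogenase, had 3 (4.91 to 7.56) with 5 to 12. For LINC01238, SERPINF2 and BDH1 some of the peaks lay on alternate sequences and were counted separately. Their numbers of peaks are therefore not numbers of distinct sites. LOC102723360 had 6 peaks (4.24 to 5.10) with 6 copies each, and LOC100507412 had 3 (3.21 to 4.53) with 5 or 6. Reads from such sequence could have come from any copy, so the addresses of these multi-copy summits are uncertain. LOC101929882 had 3 peaks (5.57 to 6.52), of which 2 had single-copy summits and the third a summit in 3 copies. In all, 39 of the 456 peaks lay outside chromosomes 1 to 22, X and Y, and 27 of the 29 peaks of chromosome 21 lay in its first 10 Mb. The label "outside repeats" therefore described the annotation of these peaks but not the number of copies of their sequence in hg38.

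Of the protein-coding families listed, C2H2 zinc-finger genes had the most peaks. These genes encode DNA-binding proteins whose fingers are usually all encoded in the last exon. Among genes with ZNF or ZFP symbols in the deposited annotation, 18 peaks in 17 genes lay in a coding exon, and each was in the last exon. A further last-exon peak without a gene name, which the RefSeq table assigns to ZNF75A, is described with the TGACA peaks and was not counted here. On chromosome 19, where many of these genes cluster, lay 10 of the 18. Such exons held 0 of the 259 overlapping peaks and 0 of all 5968 LV-MEIS1 peaks, where the interval reached 0.0643%. Their fold enrichment was 4.10 to 7.37 (median 5.57), their background 2.9 to 5.00, and the median G + C content of their summits 46.5%, against 63.4% for all 456. The peak with the highest fold enrichment was in ZNF180 (chr19:44476540-44477456, pileup 27.7, fold enrichment 7.37), followed by ZNF436 (6.23), ZNF77 (6.23) and ZNF594 (5.95). The word TGTGGGAAA lay within 50 bp of 14 of the 18 summits (77.8%, 54.8 to 91.0) and in 6 of 36 flank windows; it was chosen after its frequency at these summits had been seen and was not tested. Of the 18 summits, those of ZNF557 and 1 of the 2 in ZNF763 occurred in more than 1 copy.

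By fold enrichment the group ranged from 1.71 to 16.6, with a median of 5.00 and quartiles of 4.11 and 6.28. The 259 overlapping peaks of the same list had a median of 6.32 (quartiles 5.18 and 8.25), and the 377 knockout-only promoter peaks 5.38. The median pileup was 25.9 and the median background 3.42, and 55 peaks (12.1%, 9.38 to 15.4) had a fold enrichment under 3, against 0 of the 259. Peaks at gene ends and in noncoding exons had the highest medians (6.76 and 6.85), and those in coding exons and 5′ UTRs lower ones (4.50 and 4.72).

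**Figure D5:**
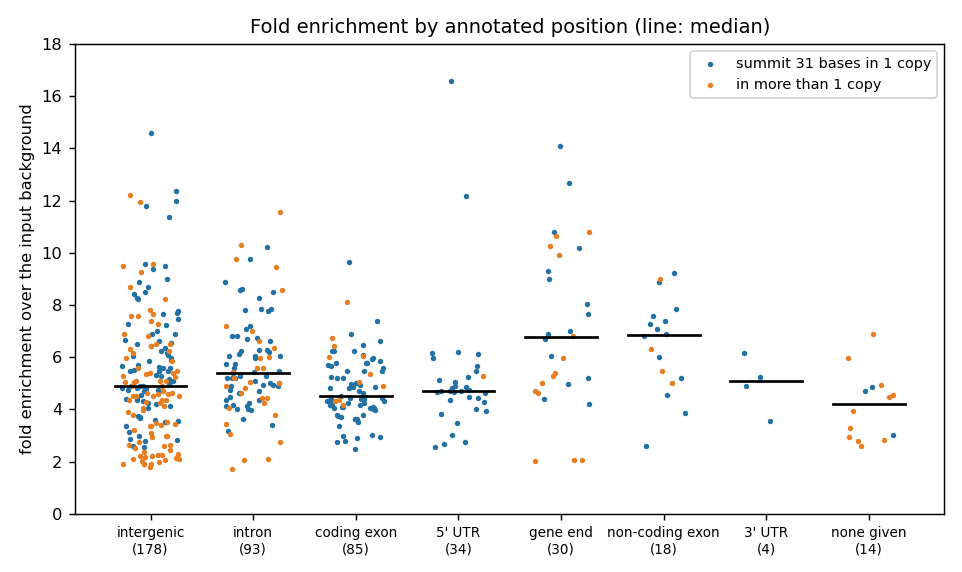
Fold enrichment of each of the 456 peaks by annotated position, with the median of each class as a line and summits present in more than 1 copy in orange. Medians run from 4.20 for the peaks with no annotation to 6.85 for noncoding exons, and the intergenic class holds most of the multi-copy peaks under 3.

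The peak with the highest fold enrichment lay in the 5′ UTR of RAB37, a small GTPase of vesicle transport (chr17:74671292-74671702), 380 bp from the start, with a pileup of 63.6 over a background of 2.9 and a fold enrichment of 16.58. The second lay in a CpG island at -4241 bp relative to the start of ZFP36, which encodes an mRNA decay factor (chr19:39402427-39402792), with 55.8 over 2.9 and a fold enrichment of 14.58. A peak in the 5′ UTR of ATL3, an atlastin GTPase of the endoplasmic reticulum (chr11:63671371-63671936), had the smallest q of the group, with a pileup of 81.7 over 5.80 and a fold enrichment of 12.16. All 3 summits were single-copy, had 68.3% to 77.2% G + C and lacked TGACA. The rest of the 20 highest were the tRNA and snRNA peaks above together with MPZL1 (11.37) and ALOXE3 (10.79), both also at tRNA genes, the single-copy peaks MIR6760 (10.79) and GOLGA2P5 (10.22), and the multi-copy peaks PPIAL4D (11.95, on an alternate sequence), TBC1D22A-AS1 (11.55), SMYD3 (10.65) and MIR3175 (9.93). TGACA lay within 50 bp of the summit in 2 of the 20, MPZL1 and MIR3175. Within 500 bp of an LV-MEIS1 peak lay RNVU1-14 (84 bp), RNVU1-15 (108 bp), PPIAL4D (158 bp), MIR6883 (238 bp) and LINC00324 (393 bp).

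TGACA was within 10 bp of the summit in 14 of the 456 peaks. Among peaks with a fold enrichment at or above the median, it was nearest in a peak of a last coding exon that the deposited annotation leaves without a gene name (chr16:3317360-3317708, 1 bp from the summit, fold enrichment 5.76). The RefSeq table assigns that transcript to the zinc-finger gene ZNF75A. It was next nearest at SRGAP3-AS2 (3 bp, 8.56), PAX4, a homeobox gene of the endocrine pancreas (8 bp, 7.78), RNU5F-1, a U5 snRNA gene (10 bp, 6.90), GALR2, a galanin receptor gene (11 bp, 5.19), FOXK2, a forkhead gene (11 bp, 5.57), LOC101928728 and LINC01962 (both 13 bp, 5.99 and 7.27), RAB3A (14 bp, 7.75) and MPZL1 (17 bp, 11.37). All 10 summits were single-copy, and those of FOXK2, LINC01962 and MPZL1 lay within 200 bp of a tRNA gene. The lowest G + C content among them, 34.7%, was found at the first 2.

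Gene families linked to MEIS and HOX function in the prostate had few or no peaks in the group, and small shares of both whole lists. No peak was annotated to a TALE homeobox gene, to an androgen-responsive or prostate lineage gene, to a small leucine-rich proteoglycan gene, to an integrin or focal adhesion gene, to a collagen or laminin gene, to a ribosomal protein gene, or to the vector and knockout genes MEIS1, EEF1A1 and HOXB13. Of the 3353 LV-MEIS1-only peaks outside promoters and repeats, androgen-responsive and prostate lineage genes had 25 (0.746%), collagens and laminins 16 (0.477%) and TALE genes 7 (0.209%). HOX clusters had 1 knockout-only peak, at HOXA7 (fold enrichment 4.99), and TGF-beta and BMP genes 1, in the 5′ UTR of BMP6 (4.43). Growth factor and receptor kinase genes had 1, in the 5′ UTR of the ephrin receptor gene EPHB1 (3.01), and cadherins 1, in the 5′ UTR of CDH7 (4.29). Wnt and Hedgehog genes had 4 (0.877%), near WNT11 at a tRNA gene, near the Hedgehog ligand gene SHH (5.59 and 4.62) and in an intron of GLI1, which encodes a Hedgehog effector (5.28). FOX, SOX, GATA and TBX genes had 2, at FOXP2 (5.75) and FOXK2 (5.57), and heat shock genes 2, both at HSPB1 (4.84 and 4.05). The share of LV-MEIS1-only peaks was 0.298% for Wnt and Hedgehog genes, 0.805% for FOX, SOX, GATA and TBX genes and 0.179% for heat shock genes. In the whole HOXB13ko-LV-MEIS1 list the shares were 0.440%, 0.293% and 0.293%. Counts of 0 to 4 are too small to set any of these lists apart.

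The lists with more peaks were those of short or repeated genes. Genes with ZNF symbols had 23 peaks in any position (5.04%, against 1.01% of the LV-MEIS1-only peaks and 3.57% of the whole HOXB13ko-LV-MEIS1 list), and microRNA genes 33 (7.24%, 6.02% and 5.18%), of which 10 were the MIR6724 peaks in ribosomal DNA. Small nuclear and nucleolar RNA genes had 13 (2.85%, 0.596% and 3.47%). Replication-dependent histone genes, which lie in clusters of similar sequence, had 7 (1.54%, 0.0596% and 1.03%), with fold enrichments of 4.15 to 6.74. Of these, 5 lay in coding exons and 2, named for HIST1H4H (6.23) and HIST1H2BL (5.61), were intergenic, the latter at a tRNA gene. The highest in a coding exon were HIST2H3C (6.74) and HIST2H3A (5.99), whose summits occurred in 2 copies each. MIR6883, MIR6760 and MIR3175 are described above. The fourth microRNA peak by fold enrichment (9.75) lay in an intron, 8978 bp from the start of MIR595, with 5 copies of its summit sequence. The microRNA names are those of the assigned start and need not lie at the peak. The peak named for MIR3175 lay 45419 bp from that start, and the one named for MIR6883 lay at a tRNA gene.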

How the data were processed

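MEIS1 ChIP-seq peak lists of CWR-22Rv1 cells were analysed, 1 per line. Per the submitters' processing notes, 50-bp single-end reads were handled with CASAVA 1.8, Trimmomatic 0.38, Bowtie2, SAMtools and Picard 2.18.10. For each line the authors merged its immunoprecipitations, ran the peak caller MACS2 with 1 common input (2.1.2 in the file headers; q of 0.01, fragments of 200 bp, the larger library scaled to the smaller), and annotated the summits with HOMER 4.9.1 on hg38. Per the file headers, the deposited pileup is a signal in fragments scaled to the smaller library. The fold enrichment the authors deposited divides the pileup plus 1 by the background plus 1. The deposited −log10 p and q, in columns whose headings were lost, were calculated by MACS2 and used for ranking and filters. Fold enrichments were compared within a list only.

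The background was computed as the pileup plus 1 over the fold enrichment, minus 1. Overlap needed 1 bp. By default Bowtie2 places a read with several matches at 1 of them, and no filter on such reads is given in the sources used here. Copies of the 31 bases at each summit were therefore counted on both strands over all hg38 sequences, alternate and unplaced ones included. Distances to transcripts came from GENCODE release 44. The tRNA and snRNA genes came from RefSeq (GRCh38.p14), by name only. Each of 24 words was searched on both strands within 50 bp of the summit and in both flanks, 450 to 550 bp away, and compared with an exact two-sided binomial test over peaks with the word in 1 of the 2 windows, taking the larger p of both flanks, with Benjamini-Hochberg adjustment. The procedure was tested on simulated sequences. Intervals are 95% Wilson intervals. Named were the 20 peaks of highest fold enrichment, genes with 3 or more peaks, up to 4 peaks in each of 18 gene lists, the 10 peaks of at least median fold enrichment with TGACA nearest, and the 5 peaks on either side of the overlap limit. The zinc-finger exons, the word TGTGGGAAA, the tRNA genes, the U5 genes and the copy counts were looked at after values had been seen. The peaks and lists were chosen with earlier results of these data known. Alternatives covered the overlap, fold, q, chromosomes, distance to a start, window, flanks and word. Python 3.11.15, numpy 2.4.6, pandas 2.3.3, scipy 1.17.1, pysam 0.24.0, statsmodels 0.14.6, numba 0.67.0 and matplotlib 3.10.9 were used. Samples were grouped by the line in their labels.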

Additional observations from a re-analysis of the deposited data

How the results depend on the processing

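The number of peaks was 309 to 462 under 5 alternatives of overlap, q, chromosome and distance to a start. It was 231 at a fold enrichment of at least 5 and 292 without multi-copy summits. The share in introns was 25.1% at a fold enrichment of at least 5. TGACA was less frequent at summits than in flanks under all 11 alternatives, and 3 passed the threshold. The difference in percentage points and its adjusted p (exact binomial) were -2.41 and 0.276 for TGACAG, -1.97 and 1.00 within 25 bp, -5.63 and 0.688 at a fold enrichment of at least 5, -7.14 and 0.0737 at q of 1e-05 or less, and -6.00 and 0.197 on chromosomes 1 to 22, X and Y. They were -4.11 and 0.674 without multi-copy summits, and -6.87 and 0.108 without tRNA, snRNA and ribosomal DNA peaks (exact binomial). Without the peaks labelled CpG island they were -7.06 and 0.238 (exact binomial). These 3 alternatives were chosen after seeing the data. The cause was not tested, although several of these settings tested fewer peaks. Of the other words 1 passed within 25 bp, 7 within 100 bp and 8 against flanks centred 1000 bp away. ATAAA passed in every one of the 5 recomputations of the words, CACGTG in all but that within 25 bp, and the B box only within 100 bp. Of 43 recomputed values 24 were classed as the same as the main result. The others were word differences that kept their direction but missed the threshold, or counts and shares that moved further from the main value. No recomputed difference between summits and flanks changed direction.

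No paired analysis was possible because each line had 1 list called on pooled immunoprecipitations. The same holds for leaving out an immunoprecipitation, and differences between lines have no replicate check. The reads behind the lists differed in number, from 105763683 in the knockout line to 202428594, so absence from a list is not absence of binding. Leaving out soft-masked summits was not run, since the reference used here carries no masking.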
